A study of Mus musculus with 12 samples.

Results

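Uptake carriers of the Slco and Slc22a gene families were followed in mouse liver during the first hours of fulminant hepatitis induced by concanavalin A (ConA). The members were all genes whose platform symbol began with Slco or Slc22a followed by a number, each represented by the probe set with the highest mean log2 signal over the 12 arrays among probe sets with 1 symbol. This gave 36 of 18193 genes, 15 of the Slco family on 32 probe sets and 21 of the Slc22a family on 28 probe sets.

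Organic anion transporting polypeptides, encoded by Slco genes, carry bile salts, bilirubin conjugates, steroid and thyroid hormone conjugates and many drugs into cells without coupling to sodium. Slc22a genes encode organic anion transporters (OATs), organic cation transporters (OCTs), carnitine transporters and related carriers. In liver several of them lie in the basolateral membrane of hepatocytes, where they take compounds up from sinusoidal blood, and their mRNA is known to depend on hepatocyte transcription factors and, for some, on sex.

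The livers came from male BALB/c mice 8 to 10 weeks old. Total RNA of whole liver was hybridised to Affymetrix Mouse Genome 430 2.0 arrays, 1 array per sample and 3 arrays in each of 4 groups. The control 0 h group is labelled untreated, while the methods of the study describe a PBS injection as the negative control. The ConA 1 h, ConA 3 h and ConA 6 h groups received 20 mg/kg ConA, a plant lectin that activates T cells, by tail vein and were taken 1, 3 and 6 h later. All animals shared strain and sex, and no genotype or further agent is named. There was no control group at 1, 3 or 6 h, so time after ConA and any effect of time of day, handling or injection cannot be told apart. RNA was extracted from the liver of each mouse, but the labels do not say how litters or cages were divided, so p-values measure the spread between these samples.

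Signals are the deposited values in linear units, and single genes were not ranked against each other by them. Members are called brighter or dimmer than the median gene, and marker signals are summed over probe sets, only as descriptions. Signals below 3.04, the 20th percentile of the whole table, were set to that floor before log2 was taken. Each group was compared with the controls by limma over all 18193 genes, and a gene is said to have risen or fallen where its Benjamini-Hochberg adjusted p over all genes was under 0.05. Median signals of the arrays ranged from 13.7 to 20.4, with 17.4 to 23.1% of probe sets at the floor, and the arrays correlated with one another at r of 0.921 to 0.965 across probe sets. The log2 change of the median gene was 0.08 at 1 h, -0.21 at 3 h and 0.02 at 6 h. None of the hepatocyte, immune, endothelial, stellate or biliary markers listed was at the floor on all arrays. The summed signal of 12 hepatocyte markers such as Alb was 98804 to 106113 in the controls and 102822 to 110075 at 6 h. That sum includes Fgb, which read 7289, 7004 and 7600 in the controls and 11695, 12893 and 12459 at 6 h.

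At 6 h after ConA 10 uptake carriers had fallen and 1 had risen. Of the 14 members brighter than the median gene by their mean over all 12 arrays, 8 fell at 6 h, whereas 21.1% of all genes brighter than the median gene fell. That mean includes the 6 h arrays, and Slco3a1, at percentile 50.7, was among the 14 with its higher 6 h signals counted. Over all 36 members 10 fell, or 27.8%, where 12.7% of all genes fell, and 1 rose, where 15.4% of all genes rose. The median log2 change of the members at 6 h was -0.09, against 0.02 over all genes. These are descriptions of the family, which was not tested as a set.

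The changes built up with time. At 1 h no member rose and none fell by limma, where 1.50% of all genes rose and 0.148% fell. Of the members, 6 had an unadjusted p under 0.05 at 1 h, 1 of them higher, and the lowest adjusted p was 0.076. The share of all genes under that unadjusted threshold was not counted, so such counts here and below have no comparison. At 3 h 4 members fell, Slc22a23, Slc22a30, Slco1a1 and Slco1b2, where 14.7% of all genes fell. No member rose at 3 h by limma, where 5.15% of all genes rose by the adjusted p. At an unadjusted p under 0.05, 2 members were higher at 3 h. The share of members that fell at 3 h, 11.1%, was near that of all genes. All 4 were also lower than the controls at 6 h. In the F test over the 4 time points 10 members passed, 27.8% against 38.0% of all genes. Between 1 h and 3 h 4 members fell (19.9% of all genes) and none rose by limma (3.08% of all genes), with 2 members higher at an unadjusted p under 0.05. Between 3 h and 6 h 4 members fell (3.83% of all genes) and 1 rose (18.8% of all genes).

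**Figure D1:**
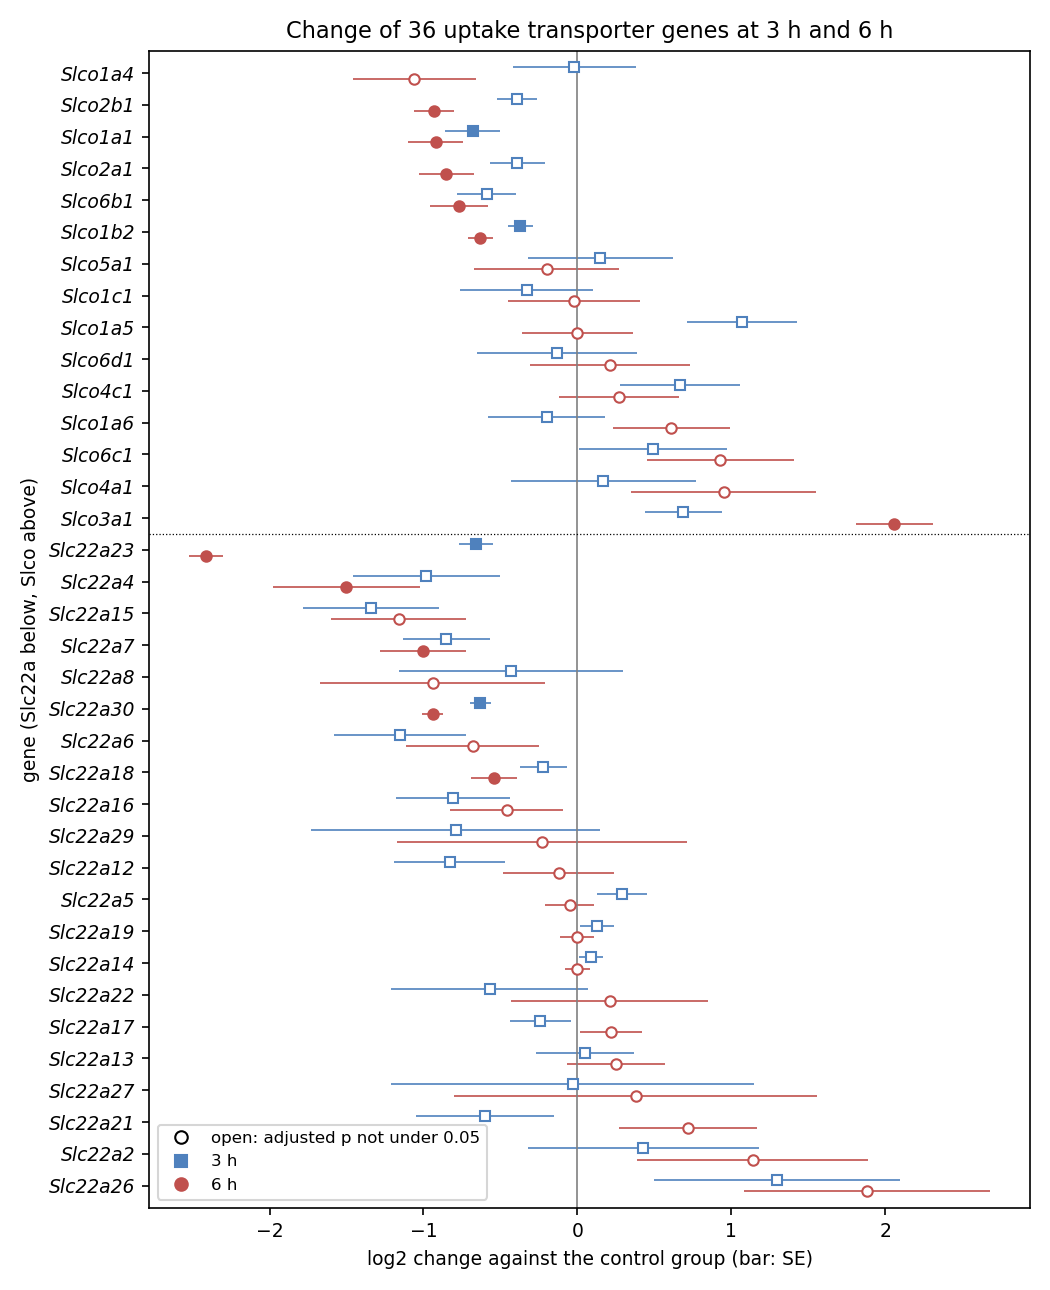
Log2 change against the controls (x axis, bar: SE from limma) of all 36 members (y axis, Slco above and Slc22a below the dotted line) at 3 h (blue squares) and 6 h (red circles), filled where the adjusted p was under 0.05. At 6 h Slc22a23 lies farthest to the left at -2.41, and Slco3a1 at 2.06 is the only filled point right of 0.

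Slco1b2, Slco1a1 and Slco2b1, carriers of the hepatocyte, fell at 6 h. The promoters of Slco1b2 and Slco1a1 are shown because they alone held a motif match among the members that fell and had an entry, and that of Slc22a23 because its signal fell farthest. Each window is the 250 bases before the RefSeq start on GRCm38.p6, 5′ to 3′ on the gene's strand. Capitals mark matches to GTTAAT, a core hexamer of the hepatocyte factor HNF1, or to AGGTCA, the core hexamer of nuclear receptors, on either strand (a match on the opposite strand reads TGACCT). The window of Slco1b2 is chr6:141629268-141629517 (plus strand), that of Slco1a1 is chr6:141946963-141947212 (minus strand) and that of Slc22a23 is chr13:34345219-34345468 (minus strand).
Slco1b2: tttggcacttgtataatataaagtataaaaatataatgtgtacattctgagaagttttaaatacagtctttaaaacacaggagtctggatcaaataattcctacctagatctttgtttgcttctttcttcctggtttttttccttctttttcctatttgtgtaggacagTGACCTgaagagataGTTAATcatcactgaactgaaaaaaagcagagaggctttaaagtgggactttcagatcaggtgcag
Slco1a1: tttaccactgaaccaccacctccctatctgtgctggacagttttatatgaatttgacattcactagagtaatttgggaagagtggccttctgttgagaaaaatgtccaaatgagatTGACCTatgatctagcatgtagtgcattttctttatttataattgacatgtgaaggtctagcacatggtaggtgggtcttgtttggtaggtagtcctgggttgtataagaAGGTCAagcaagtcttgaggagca
Slc22a23: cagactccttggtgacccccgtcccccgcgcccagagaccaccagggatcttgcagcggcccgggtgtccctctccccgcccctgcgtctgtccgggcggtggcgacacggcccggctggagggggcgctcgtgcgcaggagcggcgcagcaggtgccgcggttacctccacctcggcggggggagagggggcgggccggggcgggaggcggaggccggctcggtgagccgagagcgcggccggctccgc

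The window of Slco1b2 held GTTAAT beginning at position -66 and AGGTCA on the opposite strand at -81, counted from the start. That of Slco1a1 held AGGTCA at -24, and on the opposite strand at -134. The Slc22a23 window held neither and was 78.4% G and C, against 33.6% for Slco1b2 and 40.4% for Slco1a1. Among 32817 RefSeq windows of the same length, 6.44% held GTTAAT and 14.0% held AGGTCA. Of the 10 members that fell, 9 had a promoter entry, and these 2 carriers were the only ones of the 9 with a match. The HNF1 palindrome GTTAATNATTAAC (0.00914% of windows) and the direct repeat AGGTCANAGGTCA (0.0335% of windows) were in none of them. A match of letters is not a bound site.

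Slco1b2 encodes OATP1B2, the liver-specific carrier of bilirubin conjugates, bile salts and many drugs. Its signals were 4170, 4364 and 4167 in the controls, 4397, 4216 and 4382 in the 1 h group, 3137, 3456 and 3252 in the 3 h group, and 2980, 2737 and 2492 in the 6 h group. All arrays of 3 h and 6 h lay below all controls, while those of 1 h overlapped with them. The log2 change was -0.37 ± 0.08 (SE) at 3 h, with an adjusted p of 0.014. At 6 h Slco1b2 had fallen by 0.63 ± 0.08 (adjusted p = 0.00048), a 1.55-fold lower signal. The 3 h change less that of the median gene was -0.15, and its adjusted p was 0.051 with a pseudocount of 1 in place of the floor. It also fell from 3 h to 6 h, by 0.26 ± 0.08 (adjusted p = 0.049).

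Slco1a1 encodes OATP1A1, a carrier of steroid sulfates and bile salts that is known to be higher in male liver. Its signals were 2249, 2175 and 2505 in the controls, 1512, 1303 and 1993 in the 1 h group, 1258, 1796 and 1314 in the 3 h group, and 1218, 1171 and 1281 in the 6 h group. Every array after ConA lay below every control. The log2 change at 1 h was -0.55 ± 0.18 and did not pass (adjusted p = 0.24). Slco1a1 fell at 3 h, with a log2 change of -0.68 ± 0.18 (adjusted p = 0.025), or -0.47 less that of the median gene. At 6 h the log2 change was -0.92 ± 0.18 (adjusted p = 0.0038), 1.89-fold lower. The 3 h call was lost without control replicate 1, 2 or 3 or without ConA 3 h replicate 1 or 3, with adjusted p of 0.061, 0.053, 0.07, 0.081 and 0.083, and with quantile normalization (adjusted p = 0.12). The 6 h call was kept throughout.

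Slco2b1 encodes OATP2B1, a carrier of steroid sulfates. Its signals were 1058, 1212 and 1151 in the controls, 1342, 1035 and 1054 in the 1 h group, 830, 854 and 921 in the 3 h group, and 613, 675 and 515 in the 6 h group. The arrays of 3 h and 6 h all lay below the controls. The log2 change of -0.39 ± 0.13 at 3 h did not pass (adjusted p = 0.069) unless ConA 1 h replicate 1 was left out (adjusted p = 0.037), only genes brighter than the median were tested (0.038) or the prior variance followed intensity (0.046). At 6 h Slco2b1 fell 1.91-fold, a log2 change of -0.93 ± 0.13 (adjusted p = 0.00074), and it fell from 3 h to 6 h by 0.54 ± 0.13 (adjusted p = 0.018).

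Slco1a4, which encodes OATP1A4, a carrier of bile salts and cardiac glycosides, did not pass the test. Its signals were 606, 513 and 344 in the controls, 1057, 506 and 447 in the 1 h group, 632, 426 and 383 in the 3 h group, and 300, 273 and 144 in the 6 h group. All 6 h arrays lay below the controls, yet arrays within every group differed by 1.65-fold or more. The log2 change at 6 h was -1.06 ± 0.40 (adjusted p = 0.083). It passed with quantile normalization (adjusted p = 0.027), among genes brighter than the median (0.023) and without ConA 1 h replicate 1 (0.045).

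Slco2a1 encodes the prostaglandin transporter, which in liver is known from endothelial cells. Its signals were 468, 353 and 440 in the controls, 484, 474 and 440 in the 1 h group, 351, 384 and 242 in the 3 h group, and 220, 262 and 214 in the 6 h group. Only the 6 h arrays lay wholly below the controls. Slco2a1 was 1.81-fold lower at 6 h, where its log2 change of -0.85 ± 0.18 passed (adjusted p = 0.0061), while that of -0.39 ± 0.18 at 3 h did not (adjusted p = 0.17). Sinusoidal endothelial markers moved in both directions. Of 11 measured markers 6 fell at 6 h, among them Kdr, Gpr182 and Ptprb with log2 changes of -2.30, -2.45 and -2.45. Lyve1 rose by 1.23, and Stab1, Stab2, Fcgr2b and Dnase1l3 did not pass, with log2 changes of -0.40, 0.02, 0.57 and 0.23. Of all genes 12.7% fell and 15.4% rose at 6 h. The summed signal of the 11 markers was 1725 to 3611 in the controls, 2054 to 2251 at 3 h and 1859 to 2049 at 6 h. The low end of the controls was control replicate 3, the lowest control in every one of these markers. The other controls lay above all arrays of 3 h and 6 h. Clec4g read 703, 724 and 335 in the controls and 290, 266 and 212 at 6 h. Fcgr2b read 639, 645 and 249 in the controls and 690, 735 and 657 at 6 h. In whole liver fewer cells of a type and less RNA per cell cannot be told apart, and the part of endothelial cells in the fall of Slco2a1 was not tested.

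**Figure D2:**
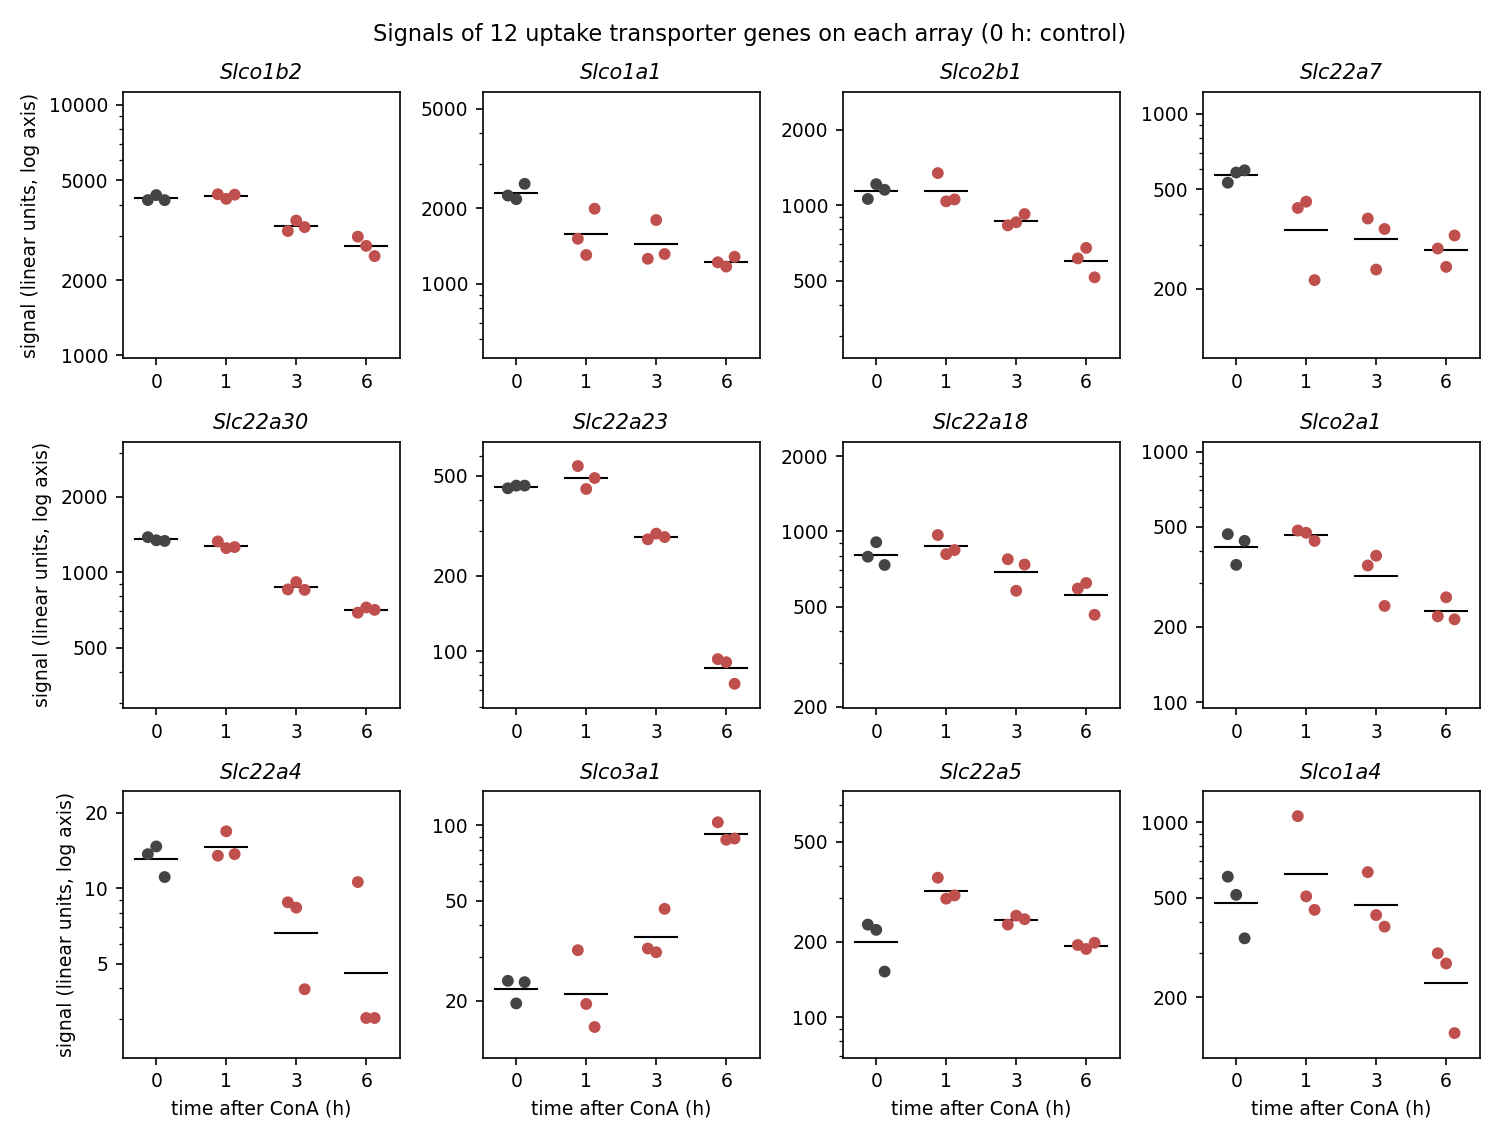
Signal of 12 members on each array (y axis, log scale, each panel with its own range) at 0, 1, 3 and 6 h after ConA (x axis), with controls in grey, ConA arrays in red and the geometric mean of each group as a line. Values under 3.04 are drawn at that floor. In Slc22a23 all 3 arrays at 6 h lie at or below 92.8 while all controls lie at or above 446, and in Slco3a1 all 3 lie at or above 87.7 while no control exceeds 24.

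Slco3a1 was the member that rose. It encodes OATP3A1, a widely expressed carrier of prostaglandins and thyroid hormones. Its signals were 24, 19.5 and 23.7 in the controls, 31.8, 19.4 and 15.7 in the 1 h group, 32.3, 31.2 and 46.5 in the 3 h group, and 103, 87.7 and 88.7 in the 6 h group. Arrays of 3 h and 6 h all lay above the controls. Slco3a1 rose by 2.06 ± 0.25 on the log2 scale at 6 h (adjusted p = 0.00032), a 4.17-fold higher signal, and by 1.36 ± 0.25 from 3 h to 6 h (adjusted p = 0.0052). Its change of 0.69 ± 0.25 at 3 h did not pass (adjusted p = 0.086), but passed with quantile normalization (0.027) and without ConA 1 h replicate 1 (0.026).

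All 3 probe sets of Slco3a1 were higher at 6 h in a fit over 45037 probe sets, with log2 changes of 1.82 to 4.09. The third probe set read 4.25, 2.85 and 2.42 in the controls, close to the floor, then 29.5, 29.2 and 21.1 at 3 h and 60.3, 59.4 and 54.1 at 6 h. By that probe set Slco3a1 had already risen at 3 h, by 2.95 ± 0.26 on the log2 scale (adjusted p = 0.00017). The probe sets therefore disagreed about 3 h and shared the direction at 6 h. Markers listed for neutrophils and monocytes also rose, those of neutrophils before Slco3a1. At 1 h, where the log2 change of Slco3a1 was -0.07, 5 of 6 measured neutrophil markers had risen. All 6 of these and all 6 measured monocyte markers rose at 6 h, where 15.4% of all genes rose. The neutrophil sum was 339 to 503 in the controls, 2113 to 3570 at 1 h and 10437 to 12092 at 6 h. Most of the 6 h sum was Lcn2, with signals of 8911, 9692 and 9719. Among the monocyte markers Fn1 was already high in the controls, at 4123, 4635 and 4267, and read 5882, 6259 and 6246 at 6 h. Whether these markers came from infiltrating cells, and whether such cells carried the Slco3a1 signal, was not tested.

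Slc22a carriers fell over a wider range of sizes. Slc22a23, a carrier whose substrates are unknown, showed the largest fall of the 36. Its signals were 446, 457 and 457 in the controls, 547, 443 and 490 in the 1 h group, 279, 294 and 285 in the 3 h group, and 92.8, 90.2 and 74 in the 6 h group. The groups of 0, 3 and 6 h were separate from each other, and 1 h overlapped with 0 h. The log2 change at 3 h was -0.66 ± 0.11 (adjusted p = 0.0029), or -0.45 less that of the median gene. By 6 h Slc22a23 was 5.32-fold lower than in the controls, with a log2 change of -2.41 ± 0.11 (adjusted p = 1.1e-06). From 3 h to 6 h alone it fell by 1.75 ± 0.11 (adjusted p = 0.00016). It had 1 probe set.

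Slc22a30, a liver carrier of the organic anion transporter branch, was the steadiest member within groups. Its signals were 1379, 1340 and 1332 in the controls, 1326, 1247 and 1259 in the 1 h group, 853, 913 and 850 in the 3 h group, and 689, 723 and 707 in the 6 h group. Every array after ConA lay below every control, and the groups of 1, 3 and 6 h did not overlap with one another. Its log2 change at 3 h was -0.63 ± 0.07 (adjusted p = 0.0003), or -0.42 less that of the median gene. Slc22a30 was 1.91-fold lower at 6 h, a log2 change of -0.94 ± 0.07 (adjusted p = 1.8e-05). It fell again between 3 h and 6 h, by 0.30 ± 0.07 (adjusted p = 0.012). A second probe set assigned to both Slc22a30 and Slc22a29 was left out.

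Slc22a7 encodes OAT2, a hepatocyte carrier of organic anions and nucleobases. Its signals were 531, 583 and 595 in the controls, 421, 446 and 217 in the 1 h group, 382, 239 and 347 in the 3 h group, and 290, 245 and 327 in the 6 h group. Every array after ConA lay below every control. The log2 changes of -0.73 ± 0.28 at 1 h and -0.85 ± 0.28 at 3 h did not pass, with adjusted p of 0.36 and 0.062. At 6 h the mean signal was 2-fold lower (adjusted p = 0.024). That call was lost without any 1 of the 3 controls (adjusted p of 0.052, 0.066 and 0.067 for replicates 1, 2 and 3) and on leaving out ConA 6 h replicate 1 or 2 (0.059 and 0.082). The 3 h change passed without ConA 1 h replicate 3 (0.014) and among genes brighter than the median (0.018).

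Slc22a18, an imprinted carrier gene, read 793, 906 and 735 in the controls, 968, 812 and 843 in the 1 h group, 775, 580 and 738 in the 3 h group, and 592, 623 and 465 in the 6 h group. Only the 6 h arrays were all below the controls. At 6 h Slc22a18 fell, with a log2 change of -0.54 ± 0.15 and an adjusted p of 0.028. The adjusted p was 0.063 and 0.092 without control replicate 1 and 2, and 0.093 without ConA 6 h replicate 3.

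Slc22a4, which encodes OCTN1, the ergothioneine transporter, was dim. Its signals were 13.7, 14.7 and 11.1 in the controls, 13.5, 16.9 and 13.7 in the 1 h group, 8.8, 8.38 and 3.96 in the 3 h group, and 10.6, 1.55 and 0.389 in the 6 h group. Arrays of 3 h and 6 h lay below the controls, 2 of those at 6 h under the floor. Slc22a4 was 2.84-fold lower at 6 h by values at the floor (adjusted p = 0.043). That call was lost on leaving out control replicate 1, 2 or 3, ConA 1 h replicate 1, 2 or 3, ConA 3 h replicate 1 or 2, or ConA 6 h replicate 2 or 3, with adjusted p from 0.053 to 0.14. The 3 h change of -0.98 passed without ConA 6 h replicate 1 (0.049).

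Slc22a5 encodes OCTN2, the high-affinity carnitine transporter. Its signals were 234, 223 and 152 in the controls, 360, 297 and 306 in the 1 h group, 234, 254 and 246 in the 3 h group, and 194, 187 and 198 in the 6 h group. The 1 h arrays lay above the controls and those of 3 h and 6 h overlapped with them. The log2 change of 0.68 ± 0.16 at 1 h gave an adjusted p of 0.076, and 0.024 among genes brighter than the median. Slc22a5 passed the F test over the 4 time points (adjusted p = 0.015). Its other probe set gave 0.68 ± 0.19 (adjusted p = 0.17 over probe sets). The 3 h change was 0.29 ± 0.16 (adjusted p = 0.23), and passed as 0.46 with quantile normalization (0.036). The 6 h change was -0.05 ± 0.16.

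Slco6b1, of a subfamily known from testis, read 4.28, 6.53 and 5.02 in the controls and was under the floor on all 6 h arrays. It was at least 1.71-fold lower at 6 h, a bound set by the floor (adjusted p = 0.014). That call did not hold with a pseudocount of 1 in place of the floor (adjusted p = 0.11), although the log2 change was then larger, -1.44 against -0.77 with the floor. At 3 h its log2 change of -0.59 did not pass (adjusted p = 0.059), but passed on leaving out control replicate 1 (0.044) or ConA 3 h replicate 1 (0.021).

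Probe sets of 1 gene mostly gave the same direction at 6 h. Both probe sets of Slco1a1 and both of Slc22a18 were lower in the fit over probe sets. Of the 5 probe sets of Slco1b2, 2 were lower and all had negative log2 changes, from -0.90 to -0.35. Slco2a1 had 2 of 4 probe sets lower. Slco2b1 had 2 of 3 lower, and the remaining one, near the floor, had a log2 change of 0.40. Slco4a1, a thyroid hormone carrier, did not pass by its brighter probe set (log2 change 0.95 ± 0.60, adjusted p = 0.3). It was higher by its dimmer one (1.07 ± 0.30, adjusted p = 0.036 over probe sets). That dimmer probe set was at the floor on 4 arrays and read at most 7.83. It is also of the platform's type that can bind transcripts of related genes. Slc22a4 did not pass in that fit (adjusted p = 0.058).

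**Figure D3:**
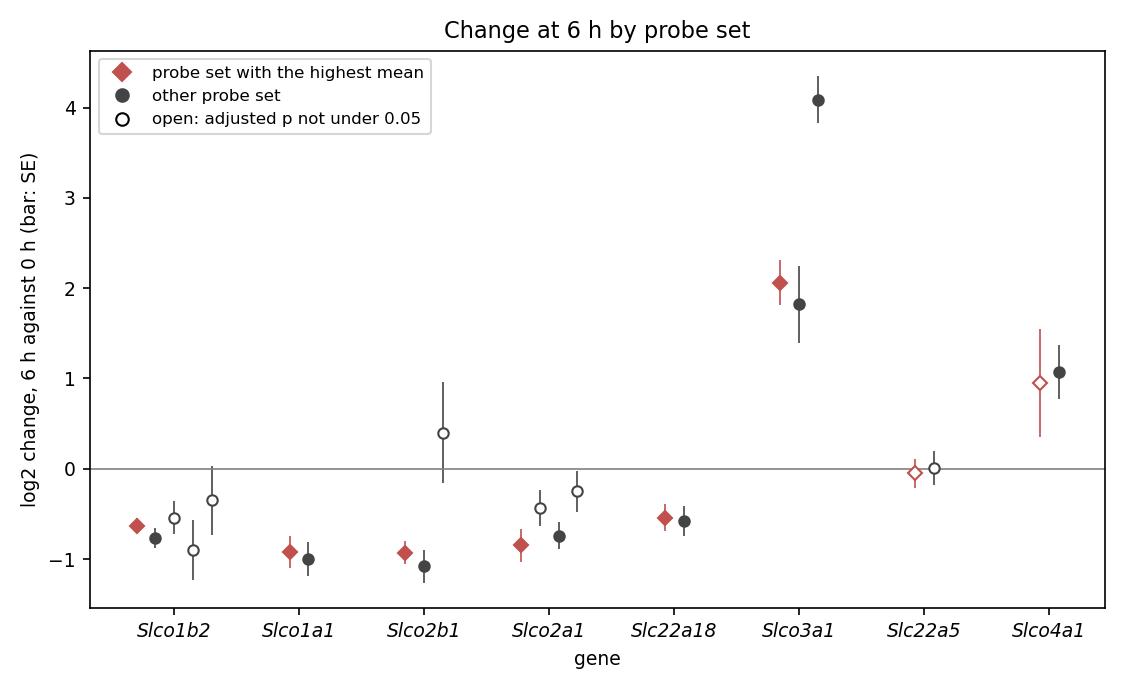
Log2 change at 6 h against the controls (y axis, bar: SE) for each probe set of 8 members with several probe sets (x axis), filled where the adjusted p over probe sets was under 0.05. Red diamonds are the brightest probe set of a gene and grey circles the others. All 3 points of Slco3a1 lie between 1.82 and 4.09, and all 5 of Slco1b2 lie below 0.

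Slc22a26, Slc22a27 and Slc22a29, organic anion carriers related to Slc22a30, did not pass at any time but varied widely between arrays of 1 group. Slc22a27 read 135, 58.5 and 14.6 in the controls, 294, 123 and 16.2 in the 1 h group, 121, 17.2 and 52 in the 3 h group, and 97.4, 69.9 and 37.2 in the 6 h group. The highest array of the 1 h group was 18.1-fold above the lowest, while Slc22a30 differed by 1.04 to 1.07-fold within any group. The SD of log2 signals within groups was 1.05 for Slc22a26, 1.56 for Slc22a27 and 1.23 for Slc22a29, against a median of 0.32 over all genes.

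The arrays that were low were the same ones. In each of 4 groups the array lowest for Slc22a27 was also lowest for Slc22a26 and Slc22a29, and in 3 of 4 it was lowest for Slco1a4. In all 4 that array was the highest for Slco1a1. The arrays were control replicate 3, ConA 1 h replicate 3, ConA 3 h replicate 2 and ConA 6 h replicate 3. Slc22a26 at 6 h, with 182, 174 and 79, lay above its controls of 76.9, 45.9 and 14.2, and its log2 change of 1.88 ± 0.80 did not pass (adjusted p = 0.12). The probe sets of Slc22a27 and Slc22a29 are of the platform's type that can bind transcripts of related genes, so their separate levels are uncertain.

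**Figure D4:**
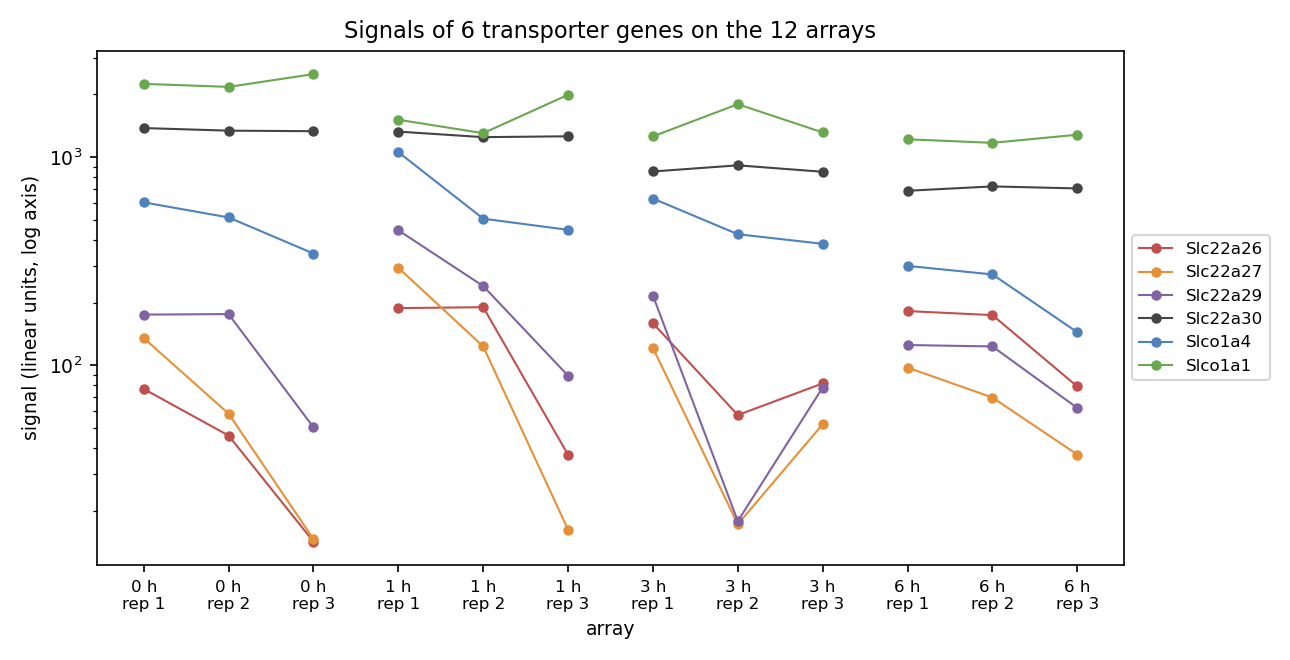
Signals of 6 members (y axis, log scale) on the 12 arrays (x axis, by time after ConA and replicate), with lines joining arrays of 1 group. Slc22a27 spans 16.2 to 294 within the 1 h group, Slc22a30 stays between 1247 and 1326 there, and Slco1a1 is highest in each group on the array where Slc22a27 is lowest.

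The remaining members were dim. Of the 25 members that did not pass against 0 h at any time, 20 were no brighter than the median gene, and none of these 20 had a signal above 54.2 on any array. They included the kidney carriers Slc22a2, Slc22a6, Slc22a8 and Slc22a12 (OCT2, OAT1, OAT3 and the urate transporter URAT1), the testis members Slc22a14, Slc22a16, Slco6c1 and Slco6d1, and the brain thyroid hormone carrier Slco1c1. The others were Slc22a13, Slc22a15, Slc22a17, Slc22a19, Slc22a21, Slc22a22, Slco1a5, Slco1a6, Slco4a1, Slco4c1 and Slco5a1. Their log2 changes at 6 h ran from -1.16 to 1.14, and their lowest adjusted p against 0 h was 0.061, for Slc22a15 at 3 h. Slc22a12 fell between 1 h and 3 h, from 32.4, 33.1 and 27.6 to 11.3, 18.2 and 11.9, by 1.20 ± 0.36 on the log2 scale (adjusted p = 0.041). Over all members, 8 were at the floor on more than 6 arrays, and 20 on none. All 3 arrays of 6 h lay below the 3 controls in 12 members, where 19.0% of all genes did, and above them in 4, where 22.8% of all genes did.

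Other hepatocyte transporters fell as well. Of 14 measured bile salt and drug transporters outside both families, 9 fell at 6 h and none rose by limma. Their median log2 change was -0.80. For comparison, 12.7% of all genes fell and 15.4% rose. Slc10a1, the sodium-dependent bile salt importer NTCP, read 5221, 5033 and 4847 in the controls and 2410, 2423 and 1878 at 6 h, a log2 change of -1.18 ± 0.13 (adjusted p = 0.00019). The equilibrative nucleoside transporter Slc29a1 changed by -2.19 and the cation exporter Slc47a1 by -1.23. The canalicular and efflux pumps Abcb11, Abcb4, Abcb1a, Abcc2, Abcc6 and Abcg2 had log2 changes of -0.65, -0.79, -1.98, -1.25, -1.23 and -0.80. At 3 h 4 of the 14 had fallen, where 14.7% of all genes fell.

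Transcription factors known to control hepatic uptake carriers changed in both directions at 3 h and 6 h. Of 16 measured, 9 fell and 3 rose at 3 h, where 14.7% of all genes fell and 5.15% rose. At 6 h 6 fell and 3 rose, where 12.7% of all genes fell and 15.4% rose. Ppara, the fatty acid receptor, fell by 2.63 on the log2 scale at 3 h and by 1.70 at 6 h. Nr0b2 (SHP), a repressor induced by bile salts, fell by 3.25 at 3 h and had a log2 change of -1.04 at 6 h that did not pass (adjusted p = 0.14). Nr1i3 (CAR), the constitutive androstane receptor, had log2 changes of -0.83 at 3 h and -2.27 at 6 h, and both passed. Nr1i2 (PXR), Cebpa, Foxa1 and Ahr had log2 changes of -0.66, -0.88, -0.66 and -0.66 at 6 h. Hnf4a, a main hepatocyte factor, fell by 0.37 at 3 h (adjusted p = 0.046), where the median gene changed by -0.21. It rose by 0.73 at 6 h (adjusted p = 0.0012), and Cebpb and Foxa3 rose by 1.09 and 0.79 at 6 h.

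Among 5 measured scaffold proteins that hold such carriers in the membrane, Pdzk1 and Slc9a3r2 fell at 6 h, with log2 changes of -0.99 and -1.36, and Slc9a3r1 rose by 0.93. Of the 12 measured hepatocyte markers none fell and 2 rose at 6 h by limma, Fgb by 0.76 and Hpx by 0.24 on the log2 scale. Kupffer cell markers fell in 4 of 10 and rose in 2, and stellate cell markers fell in 6 of 9. T cell markers rose in 3 of 7 and cholangiocyte markers in 1 of 5. For comparison, 12.7% of all genes fell and 15.4% rose at 6 h. The part of these cell types in the transporter changes was not tested.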

How the data were processed

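The authors deposited a table of 45101 probe sets of Affymetrix Mouse Genome 430 2.0 arrays for 12 livers. The deposited values are linear signal intensities. The submitters' processing notes name MAS5 5.0, while the methods of the study name RMA. The values were used as deposited, without new scaling between arrays. Leaving out 64 control probe sets left 45037, of which 34945 carried 1 symbol in GEO's platform annotation (932 several, 9160 none). Symbols were updated through Entrez identifiers, found for 34741 of these probe sets, and no member's symbol changed.

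Intensities under the 20th percentile (3.04) were raised to it and log2 transformed. Differences were fitted with limma 3.58.1 in R 4.3.3 (lmFit, eBayes, two-sided, all 4 groups in 1 fit), adjusted by Benjamini-Hochberg over 18193 genes, and tested on simulated data first. The precision is limited by 3 arrays per group. Named in full were members that passed against 0 h at any time and known hepatocyte uptake carriers. Members and lists were chosen with earlier results of these data known. The alternatives tried were genes brighter than the median only, quantile normalization between arrays, a pseudocount of 1 in place of the floor, an intensity trend, another probe set rule, leaving out each array and the replicate number as a block. Promoter windows are RefSeq sequences of GRCm38.p6. Protein sequences were not used here.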

Additional observations from a re-analysis of the deposited data

How the results depend on the processing

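No named member changed sign among calls under any of the alternatives. Of 15 calls of 13 named members against 0 h, 9 were kept under every alternative run, and over 696 recomputed values 653 kept their side of the threshold, 26 lost a call and 17 gained one. The 6 calls that some alternatives lost are given with their values beside each gene. The counts over 36 members moved as follows. The 10 members lower at 6 h became 7 without control replicate 1. They became 8 without control replicate 2 or 3 or ConA 6 h replicate 2 or 3, and 11 with quantile normalization. The 4 members lower at 3 h became 3 with quantile normalization, with a pseudocount of 1 and without control replicate 3 or ConA 3 h replicate 3. They became 6 among genes brighter than the median and without ConA 6 h replicate 1. Quantile normalization, which moved the median log2 change of all genes at 3 h from -0.21 to -0.05, gave 2 members higher at 3 h, 1 higher and 1 lower for 3 h against 1 h, and 8 lower for 6 h against 3 h. A pseudocount of 1 gave 1 higher for 3 h against 1 h and 2 lower for 6 h against 3 h. Testing only genes brighter than the median, which leaves out Slc22a4 and Slco6b1, gave 1 higher at 1 h, 1 at 3 h, 2 at 6 h and 1 for 3 h against 1 h. The 1 at 3 h was Slco3a1, which stood at percentile 50.7 with its higher 6 h signals counted. Leaving out single arrays gave 0 to 1 lower at 1 h (1 without control replicate 2), and 0 to 1 higher both at 3 h and for 3 h against 1 h (1 without ConA 1 h replicate 1 or ConA 3 h replicate 2). It gave 1 to 2 higher at 6 h (2 without ConA 6 h replicate 2), 1 to 2 higher for 6 h against 3 h (2 without ConA 3 h replicate 2 or ConA 6 h replicate 1 or 2), and 2 to 5 lower for 6 h against 3 h (2 without ConA 6 h replicate 3). With the replicate block 2 members were higher and 11 lower at 6 h, Slco1a4 among them (adjusted p = 0.006), and no other call of a named member changed. Arrays with the same number did not deviate together (r from -0.00537 to 0.041 over 18 pairs, and from -0.0553 to 0.0337 over 36 pairs with other numbers), so the numbers were not read as pairs. The cause of these moves was not tested. Signals near the floor limit what can be said of the dim members.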

Other observations

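The order of arrays within groups that Slc22a27 showed was also seen in genes known to differ between the sexes in mouse liver, although all mice were labelled male. These genes were chosen after the values were seen, and the comparison is a description. The array lowest for Slc22a27 in each group was also the lowest for Cyp2b9, Cyp2b13, Sult2a2, Sult3a1, Hao2 and Cyp4a14, genes known to be higher in females, in 4 of 4 groups. Cyp3a44 had it lowest in 1 group and Cux2 in 2. The same array was the highest in 4 of 4 groups for Hsd3b5, Cyp7b1, Cyp4a12a and C6, which are known to be higher in males, in 3 for Elovl3 and in 2 for Cyp2d9. Cyp2b13 read 278, 535 and 37 in the controls and 1166, 1197 and 79.8 at 1 h, with the third replicate low in both. Cyp7b1 read 1322, 1101 and 2671 in the controls and 729, 770 and 2120 at 1 h, with the third replicate high in both. Whether such a difference between animals bears on the members was not tested.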
